A study of Mus musculus with 6 samples.

Results

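The metallothionein genes Mt1 (ENSRNOG00000038047) and Mt2A (ENSRNOG00000043098) were examined in the brains of D21 offspring. Both were chosen by their rat Ensembl identifiers, and both are present, as 2 of the 32623 genes in the deposited table. The study sequenced 6 brains, 3 from pups whose dams ate a high-fat diet (MHFD group) and 3 from pups whose dams ate a normal diet (MND group), with 1 library per brain. The high-fat diet was given before mating and through pregnancy and suckling, so exposure before and after birth cannot be told apart. The same strain, tissue and age of 21 days are given for both groups, which differed in the diet of the dams. The study words the time of mating differently for each diet, so the age of the dams may differ as well. The sample labels name C57BL/6 mice, whereas the study describes Sprague-Dawley rats and all identifiers are those of the rat. The sex of the sequenced pups and whether any of them shared a dam are not given in the sources used here. If pups of a group shared a dam, the p-values below measure the spread between pups and not between litters.

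Metallothioneins are small proteins, rich in cysteine, that bind zinc and copper and buffer these metals inside the cell. Transcription of Mt1 and Mt2 rises with zinc through the metal-responsive factor MTF-1, and also with glucocorticoids, cytokines and oxidative stress. In the brain they are known mainly as genes of astrocytes, where they increase after injury. Mt2A is among the genes that the study singled out from these same libraries, for its annotation to astrocyte activation. It is therefore not an independent choice.

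The total count per library lay between 43679373 and 61385917. Levels are given as CPM, which divides a gene's count by the total of its library, with the totals adjusted by the TMM method. In every library more genes held exactly 4 counts than 3 or 5, so the counts need not equal fragments. The files pair no identifier with a symbol, so neither the marker genes of brain cell types nor the labels of the 2 groups could be checked with a gene. The direction of each difference below rests on the HFD and ND names of the columns. It is not settled whether these names and the study's own plot of Mt2A assign the groups alike. If the names of the columns were exchanged, Mt2A would be higher in the MHFD group, by 1.41 times, and each other difference would turn as well.

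By the column names, Mt2A values were lower in the MHFD brains, but the difference did not pass the test after adjustment over all genes. MHFD replicates 1, 2 and 3 contained 1565, 1160 and 1308 Mt2A counts, which were 25.6, 24.4 and 29.9 CPM. In MND replicates 1, 2 and 3, it held 2479, 1585 and 2138 counts, or 40.9, 30.4 and 41.3 CPM. Each MHFD library lay below each MND library, with MND replicates 1 and 3 well above the others and MND replicate 2 close to MHFD replicate 3.

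**Figure D1:**
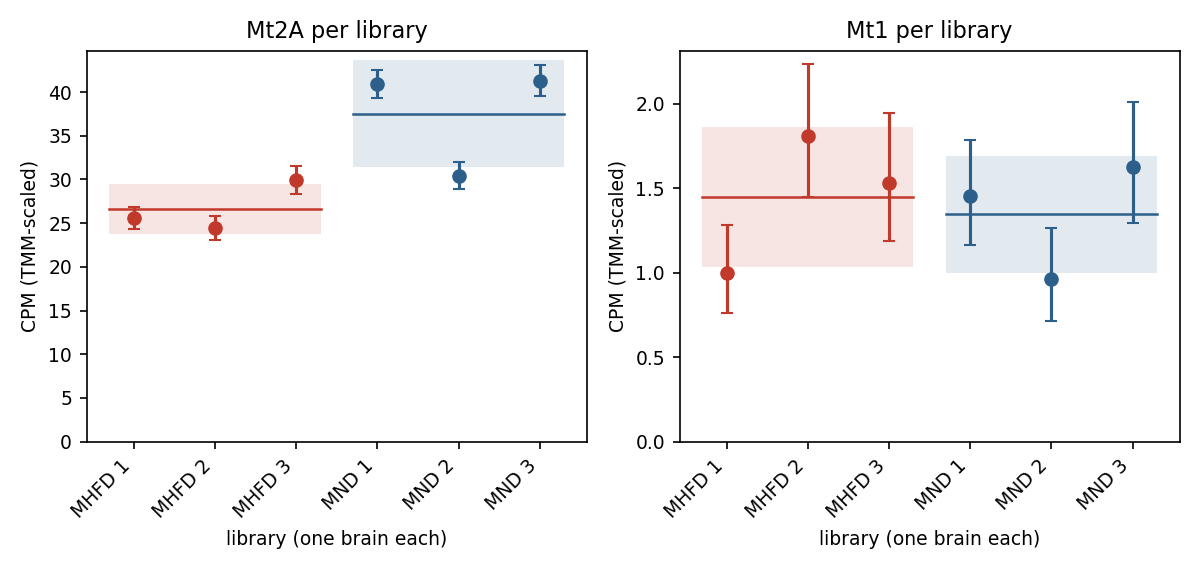
CPM of Mt2A (left) and Mt1 (right) in each library, with the MHFD group in red and the MND group in blue; bars on the points are exact 95% Poisson intervals of the count, lines are group means and shaded bands are 1 SD. For Mt2A, the MHFD libraries lie between 24.4 and 29.9 CPM and the MND libraries between 30.4 and 41.3 CPM; for Mt1, the groups overlap.

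Mean Mt2A was 26.6 ± 2.88 CPM after MHFD, against 37.5 ± 6.15 CPM after MND (SD, n = 3 per group). This was a log2 fold change of -0.50 (standard error 0.15, 95% interval from -0.85 to -0.14), or 0.709 times the MND level (95% interval from 0.554 to 0.907). The unadjusted p from edgeR's quasi-likelihood test was 0.0133, and the adjusted p was 0.539 after Benjamini-Hochberg adjustment over 16776 tested genes. An exact permutation test of mean log2 CPM over the 6 libraries gave a two-sided p = 0.1, the smallest that 3 animals against 3 allow.

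These values were read against the whole table. An unadjusted p under 0.05 with a lower level in the MHFD group was found for 3.78% of tested genes, and in either direction for 8.68%. The share in either direction was 17.0% without MHFD replicate 1, 4.77% without MHFD replicate 2 and 5.26% without MHFD replicate 3. Without MND replicates 1, 2 and 3 it was 5.11%, 5.98% and 10.2%. The share thus moved up or down with the library left out, and each of these fits held fewer libraries. Mt2A stood at rank 404 by p. The groups did not overlap for 13.9% of tested genes in either direction and for 6.83% with the MHFD group lower, so the separation for Mt2A was one of 1145 such cases. An adjusted p under 0.05 was reached by 0.00596% of tested genes in either direction, which is 1 gene. The median log2 fold change over all tested genes was 0.0023, and 7.19% of them had a log2 fold change as low as that of Mt2A or lower.

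**Figure D2:**
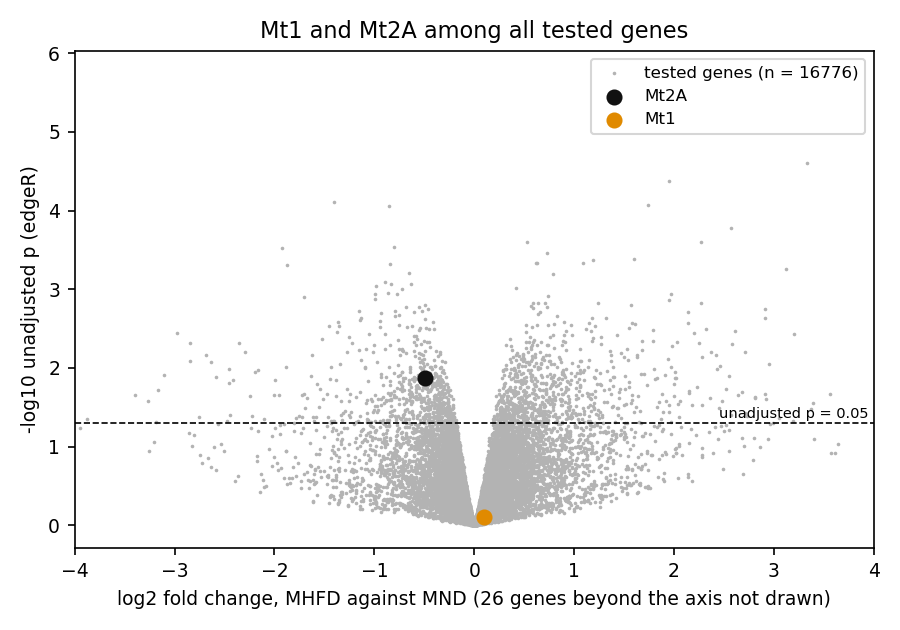
Log2 fold change of MHFD against MND (x axis) and -log10 of the unadjusted p from edgeR's quasi-likelihood test (y axis) for the 16776 tested genes in grey, with Mt2A in black and Mt1 in orange; 26 genes lie beyond the x axis. Mt2A lies above the dashed line, which marks the unadjusted threshold, on the side of lower MHFD values, and Mt1 lies near the origin.

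The gap between the groups for Mt2A was narrow. It was 0.549 CPM, between 29.9 CPM in MHFD replicate 3 and 30.4 CPM in MND replicate 2. The exact 95% Poisson intervals of these neighbours, from 28.3 to 31.6 CPM and from 29.0 to 32.0 CPM, overlapped. These intervals cover counting error only. With upper-quartile normalization the order turned, at 30.5 CPM in MHFD replicate 3 and 30.4 CPM in MND replicate 2, so the groups overlapped under that scaling. With DESeq2's size factors (RLE) and with library size alone they stayed apart, by 0.705 and 0.609 CPM.

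In the order of the Mt2A levels, the libraries formed 3 pairs. MHFD replicates 2 and 1 were lowest, and their counting intervals overlapped. MHFD replicate 3 and MND replicate 2 followed. MND replicates 1 and 3 were highest, at 40.9 CPM (95% interval from 39.3 to 42.5) and 41.3 CPM (from 39.6 to 43.1). MND replicate 2 was below these by more than counting error, also if each fragment had added 4 counts, when its interval ran from 27.5 to 33.6 CPM and that of MND replicate 1 from 37.7 to 44.2 CPM. With 4 counts per fragment, the interval of MHFD replicate 3 started at 26.7 CPM, within that of MHFD replicate 1, which ended at 28.2 CPM.

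The SD between animals for Mt2A was 10.8% of the mean for MHFD and 16.4% for MND. Its gene-wise biological coefficient of variation, which edgeR draws toward the trend, was 0.160, and the trend for genes of its abundance was 0.185. The quasi-likelihood test does not use this gene-wise value. When each library was left out in turn, the log2 fold change of Mt2A lay between -0.63 and -0.42, with unadjusted p between 0.00264 and 0.0493 and adjusted p between 0.273 and 0.951 in edgeR's quasi-likelihood test. It was farthest from 0 without MND replicate 2. As these are bulk brains, fewer Mt2A-expressing cells and less Mt2A RNA per cell cannot be told apart.

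Mt1 encodes the other widely expressed metallothionein and is known to be induced by much the same stimuli as Mt2. The row of Mt1 held few counts for a gene known to be well expressed in astrocytes. The name of the row could not be checked with a table of rat genes, and whether the identifier is that of the main Mt1 gene or of a copy was not tested. There were 61, 86 and 67 counts in MHFD replicates 1, 2 and 3, or 0.997, 1.81 and 1.53 CPM. In MND replicates 1, 2 and 3 there were 88, 50 and 84 counts, or 1.45, 0.960 and 1.62 CPM. The highest library was MHFD replicate 2 and the lowest MND replicate 2, and the ranges of the groups overlapped.

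Mean Mt1 was 1.45 ± 0.414 CPM after MHFD, against 1.34 ± 0.344 CPM after MND (SD, n = 3 per group). The log2 fold change was 0.10 (standard error 0.37, 95% interval from -0.77 to 0.98), with an unadjusted p of 0.788 and an adjusted p of 0.957 from edgeR's quasi-likelihood test. The exact permutation test gave a two-sided p = 0.7. The interval reached from 0.586 to 1.97 times the MND level, so it also held the ratio measured for Mt2A. The SD between animals for Mt1 was 28.6% of the mean for MHFD and 25.6% for MND. Its gene-wise biological coefficient of variation, also drawn toward the trend and not used by that test, was 0.368, and the trend for genes of its abundance was 0.504. Without MHFD replicate 2 the log2 fold change of Mt1 was -0.092, and without MND replicate 2 it was -0.089, so its sign rested on single libraries.

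Counting error was also set beside the spread of Mt1. The exact 95% Poisson interval of the 50 counts in MND replicate 2 ran from 37.1 to 65.9 counts, and that of the 86 counts in MHFD replicate 2 from 68.8 to 106.2 counts. In CPM, the intervals of these extreme libraries, from 0.713 to 1.27 and from 1.45 to 2.24, did not overlap. If each fragment had added 4 counts, they ran from 0.476 to 1.61 CPM and from 1.16 to 2.81 CPM, and overlapped. Neighbouring libraries in the order of Mt1 levels had overlapping intervals throughout.

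Metallothionein genes and their processed copies are alike in sequence. How reads that match several of them were counted is not given in the sources used here, so the rows of Mt1 and Mt2A are uncertain in this respect. Without the lengths of the rat genes, the levels of Mt1 and Mt2A were not compared with each other. Their count ratio within a library, which does not depend on the library total, was compared between libraries instead. For each 100 counts of Mt2A there were 3.90, 7.41 and 5.12 counts of Mt1 in MHFD replicates 1, 2 and 3. In MND replicates 1, 2 and 3 there were 3.55, 3.15 and 3.93. MHFD replicates 2 and 3 stood above the MND libraries, while MHFD replicate 1 lay just below MND replicate 3, so the groups overlapped. The mean ratio was 5.48 ± 1.78 for MHFD, against 3.54 ± 0.387 for MND (SD, n = 3 per group). Whether the fold changes of the 2 genes differed was not tested.

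**Figure D3:**
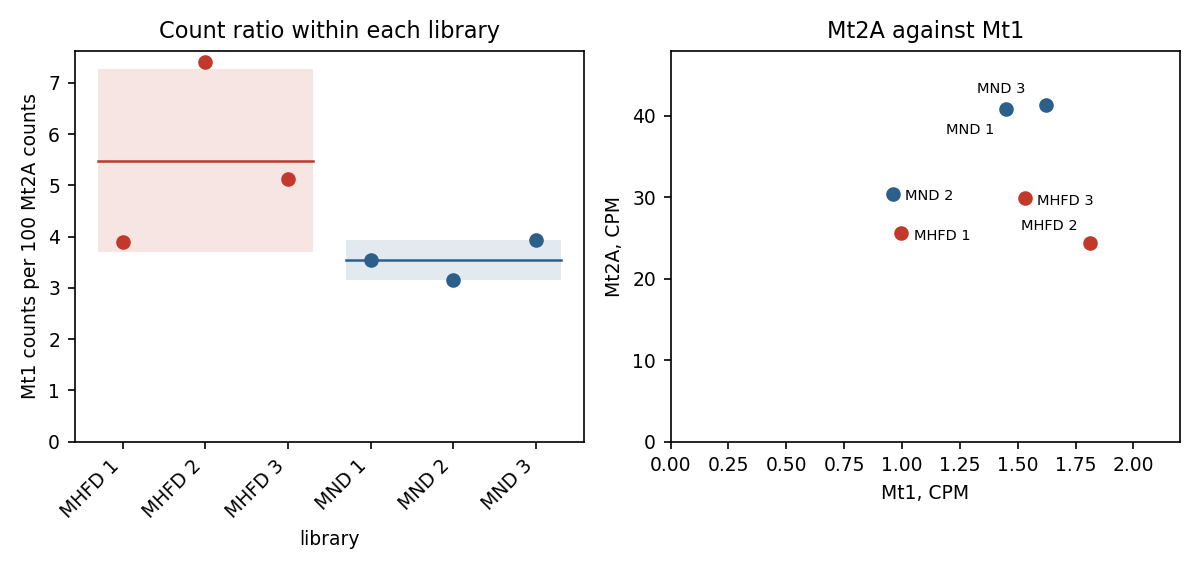
Left, Mt1 counts for each 100 Mt2A counts in each library, with group means as lines and 1 SD as bands; right, Mt2A against Mt1 in CPM, with 1 point per library (MHFD in red, MND in blue). The ratio is highest in MHFD replicate 2, at 7.41, and the points on the right follow no common line over the 6 libraries.

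Across the 6 libraries, log2 CPM of Mt1 and Mt2A had a Pearson r of 0.209 (exact permutation p = 0.667) and a Spearman rho of -0.143 (exact permutation p = 0.803, also the Benjamini-Hochberg adjusted value of both). Without MND replicate 2 and MHFD replicate 1, the 2 libraries farthest from the median of Mt1, r was -0.695. That value rests on 2 libraries per group, kept by their Mt1 level, and was not tested. It also holds the difference between the groups in Mt2A. No relation was therefore shown, and 3 libraries per group are too few for a correlation within groups. Within each group the libraries fell differently. In the MND group, MND replicate 2 was lowest in both genes. In the MHFD group, replicate 2 was highest in Mt1 and lowest in Mt2A.

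Among 14496 other genes averaging 1 CPM or more, the pattern most like the mean of the 2 genes was that of ENSRNOG00000032542, with a Pearson r of 0.987 over 6 libraries. The r of ENSRNOG00000032542 was lower with each member alone, at 0.836 with Mt1 and 0.692 with Mt2A. Its level was 2.38 ± 0.369 CPM after MHFD, against 2.69 ± 0.484 CPM after MND (SD, n = 3 per group). The next was ENSRNOG00000051682, with r = 0.986 for the mean, 0.774 with Mt1 alone and 0.760 with Mt2A alone. Its level was 35.4 ± 2.42 CPM after MHFD, against 37.8 ± 3.06 CPM after MND (SD, n = 3 per group). They were picked from many genes for this likeness over few libraries, which is a description only. Neither passed edgeR's quasi-likelihood test between the groups, with adjusted p = 0.875 and 0.819.

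**Figure D4:**
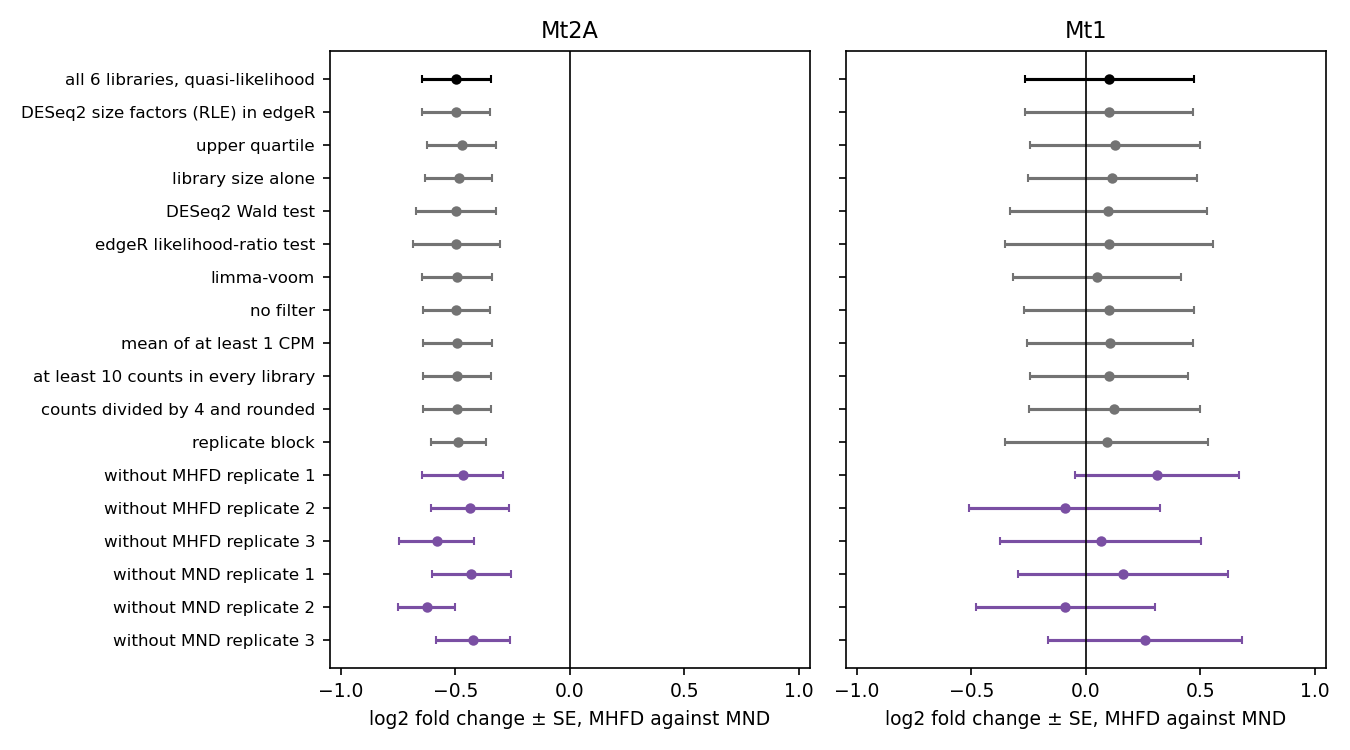
Log2 fold change of MHFD against MND with its standard error for Mt2A (left) and Mt1 (right), with all 6 libraries and edgeR's quasi-likelihood test in black, under other processing in grey and without each library in purple. Mt2A stays between -0.63 and -0.42, while Mt1 lies on either side of 0, between -0.092 and 0.31.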

How the data were processed

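Total RNA of each brain was extracted with Trizol and sequenced on Illumina libraries by a service company. The authors deposited whole counts per gene, without normalization, with 1 column per library. The submitters' processing notes name Bowtie and mm10, a mouse build, while the identifiers are those of the rat; the counting program is not given in the sources used here. The members, their names and the tests were chosen with earlier results of these data known.

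Counts were filtered with filterByExpr (minimum count 10, minimum total 15), which kept both genes and 16776 in all, scaled by TMM and tested with the quasi-likelihood test in edgeR 4.0.16 (R 4.3.3), with group as the only term. P-values were adjusted by Benjamini-Hochberg, and log2 CPM used a prior count of 2. The scripts were tested on simulated data. Named genes were the 2 members and, as symbols were lacking, the 2 genes most like their mean. Mouse reference tables were given, and they matched 0 identifiers, so the planned lists (metal handling, glucocorticoid, oxidative stress, STAT3, cell type markers) were not run and no sequence is shown. No library was a copy of another of its group (chi-square per gene at least 30.6). Pairs of libraries from different groups were not compared in this way. Alternatives used DESeq2 1.42.0 and limma 3.58.1.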

Additional observations from a re-analysis of the deposited data

How the results depend on the processing

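Under the 11 other settings, Mt2A kept its direction, with a log2 fold change between -0.50 and -0.47, an unadjusted p between 0.00477 and 0.0169 and an adjusted p between 0.155 (DESeq2's Wald test) and 0.768 (replicate block). Mt1 lay between 0.049 and 0.13, with an unadjusted p of at least 0.738. Leaving out each library in turn gave log2 fold changes from -0.63 to -0.42 for Mt2A and from -0.092 to 0.31 for Mt1, with 0 adjusted p under 0.05 for either gene, and from 0.34 to 0.80 for the difference of the log2 count ratio (0.58 with all libraries). Over all genes, calls at an adjusted p under 0.05 numbered 1 with all libraries in edgeR's quasi-likelihood test, 98 in its likelihood-ratio test and 196 in DESeq2's Wald test. They numbered 0 with limma-voom (beside 1424 past an unadjusted 0.05), 0 with at least 10 counts in every library (1482), 0 with counts divided by 4 (1371) and 0 with the replicate block (1078), and ran from 0 (without MHFD replicate 3, 902) to 28 (without MHFD replicate 1, 2904) with a library left out; the cause was not tested. With the replicate number as a block, the log2 fold change was -0.49 for Mt2A (unadjusted p = 0.0104, edgeR) and 0.091 for Mt1. Deviations of same-numbered libraries from their group means correlated at -0.0866, 0.00108 and -0.144 across genes. Whether these libraries share more than a number is not given in the sources used here. The block changed no call of the 2 genes. The correlation of the 2 genes was 0.210 with a prior count of 0.5 and 0.193 with library size alone.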
